A study of Rattus norvegicus with 7 samples.

Results

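The miR-129 miRNAs are the mature products of the Mir129-1 and Mir129-2 hairpins, and 3 of the 719 miRNAs on the array carry the name: rno-miR-129-1-3p, rno-miR-129-2-3p and rno-miR-129-5p, written here without the species prefix. They were found by their exact names among the spots that are no controls, which gave 6 of the 1730 probes, 2 for each miRNA, with 10 spots per probe on every array. They were selected on the measured difference between the groups, since both 3p miRNAs were lower with interleukin-6 (IL-6), so that difference is a description here and carries no test. IL-6 is a cytokine, and working muscle secretes it. The cells were rat primary skeletal muscle cells (RSkMC) from neonatal limb muscle, bought as frozen stock at the second passage and taken on day 11 after differentiation was induced with low horse serum. Total RNA of 3 untreated samples and of 4 samples given recombinant IL-6 at 1 ng/ml was hybridised to 1-colour Agilent miRNA arrays, 1 array per sample. The growth protocol names IL-6 for every sample; the groups rest on the titles and the series design. Nothing in the labels says whether replicates were separate cultures, so any p-value measures only the spread between these samples.

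A miRNA hairpin is cut into a duplex, and either strand, the 5p arm or the 3p arm, can be loaded into an Argonaute protein and guide it to messenger RNAs. Bases 2 to 8 of the loaded strand, the seed, make most of the contact with a target. miR-129 is known above all from brain, where it is enriched in neurons, and from tumours in which the Mir129-2 promoter is methylated. The 5p arm is the same RNA from both hairpins, while each hairpin gives its own 3p arm.

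The mature sequences are shown because the 3p miRNAs differ by very little where the array reads them. RefSeq (GRCr8) held all 3 miR-129 miRNAs. Capitals mark the seed.
miR-129-1-3p: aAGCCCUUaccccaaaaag
miR-129-2-3p: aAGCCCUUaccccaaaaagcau
miR-129-5p: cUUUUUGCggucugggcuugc
Both 3p arms have the seed AGCCCUU and share all of their first 19 bases. miR-129-2-3p has 3 more bases at its 3′ end. The seed of the 5p arm, UUUUUGC, is a different one, and no other RefSeq rat miRNA has either seed, among 693 mature names.

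The hairpins show where those arms lie; capitals mark the 5p arm and then the 3p arm.
Mir129-1: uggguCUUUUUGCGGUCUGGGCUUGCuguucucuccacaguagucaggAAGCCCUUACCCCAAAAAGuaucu
Mir129-2: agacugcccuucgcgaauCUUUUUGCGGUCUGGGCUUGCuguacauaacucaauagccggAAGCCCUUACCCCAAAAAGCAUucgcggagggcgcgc
The stretch between the arms is 22 bases long in Mir129-1 and 21 in Mir129-2. Over the 22 bases that start each 3p arm, the Mir129-2 hairpin and the Mir129-1 hairpin differ at 1 position, C20U, counted from 1 at the 5′ end of the arm with the Mir129-2 base first. In RefSeq, Mir129-1 lies inside an uncharacterised long non-coding RNA gene, LOC120102250, between the protein-coding genes Snd1 and Lep. Mir129-2 lies in no other annotated gene, between Hsd17b12 and Ttc17.

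The probes are shown because the 3p signals cannot be read as separate without them. They are DNA, complementary to the 3′ part of the miRNA, and capitals mark the letters that have no partner in the other 3p arm.
miR-129-1-3p probe of 16 bases: ctttttggggtaaggg
miR-129-1-3p probe of 15 bases: ctttttggggtaagg
miR-129-2-3p probe of 18 bases: ATGctttttggggtaagg
miR-129-2-3p probe of 17 bases: ATGctttttggggtaag
miR-129-5p probe of 15 bases: gcaagcccagaccgc
miR-129-5p probe of 14 bases: gcaagcccagaccg
Both probes for miR-129-1-3p are complementary to miR-129-2-3p over their full length as well: the 16-base probe pairs with bases 4 to 19 of either RNA and leaves 3 bases of miR-129-2-3p free at its 3′ end. The reverse does not hold. The 18-base probe pairs with bases 5 to 22 of miR-129-2-3p and with 15 bases of miR-129-1-3p, and its first 3 letters, ATG, have no partner in the latter. Among the 181 miRNAs tested, miR-129-1-3p was the only one whose probe also matched another RefSeq rat miRNA over its full length; 167 of the 181 have a RefSeq sequence under the array's name. The probes for the 5p arm paired with at most 3 bases in a row of either 3p arm, and no probe for another miRNA matched a miR-129 arm over its full length. The files place the 18-base probe at chr3:78648995-78649012 (rn4) and the 16-base probe at chr4:55892214-55892228 (rn4), an interval of 15 bases for 16 letters. They place the 15-base probe of the 5p arm at both loci, chr3:78648955-78648969 and chr4:55892173-55892187 (rn4).

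Control arrays detected 174 to 185 miRNAs each, and IL-6 arrays 179 to 207. All 7 arrays came from 1 slide, on which the treated samples filled a row of their own, so the row and the treatment cannot be told apart. Factors that scale the arrays to a common 75th percentile ran from 0.852 to 1.25. The labelled cell type was checked against its markers: none of 7 muscle-specific miRNAs, among them miR-1-3p, miR-133a-3p and miR-206-3p, was detected on any array, while 5 of 5 miRNAs typical of fibroblasts or smooth muscle were present on every array. Of markers of endothelium, blood and epithelium, 9 of 10 were detected on no array, and miR-223-3p on 1.

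miR-129-1-3p was lower on every IL-6 array than on every control array. Its 16-base probe read 83.4 ± 1.1, 85.1 ± 1.4 and 99.5 ± 1.2 intensity units on control replicates 1, 2 and 3 (mean ± SE over spots), before any scaling between arrays. On IL-6 replicates 1, 2, 3 and 4 it read 57.5 ± 1.4, 81.1 ± 1.0, 72.3 ± 1.1 and 75.1 ± 1.0. The groups do not overlap even unscaled, but IL-6 replicate 2, the array with the largest scaling factor, lay close to the lower controls. After scaling, the values were 97.8, 89.6 and 99.3 on the controls and 65.2, 64.9, 68.0 and 71.4 on the IL-6 arrays, and IL-6 replicate 2 lay with the others of its group. The group means were 95.6 ± 5.2 (SD, n = 3) and 67.4 ± 3.0 (SD, n = 4) scaled intensity units, a log2 difference of -0.50 ± 0.05 (SE), a change of -29.5%. In RNA from whole cultures, fewer cells that make a miRNA and less of it per cell cannot be told apart.

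miR-129-2-3p gave nearly the same picture. Its 18-base probe read 121.6 ± 2.3, 122.0 ± 3.0 and 150.9 ± 3.9 intensity units on the controls, and 89.5 ± 1.2, 120.3 ± 3.2, 114.3 ± 2.6 and 110.1 ± 2.4 on IL-6 replicates 1 to 4, unscaled. Unscaled, IL-6 replicate 2 and control replicate 1 were closer than the error over their spots. Scaled, the controls were at 142.7, 128.6 and 150.7 and the IL-6 arrays at 101.5, 96.1, 107.4 and 104.7, so the groups separated. The means were 140.6 ± 11.2 (SD, n = 3) and 102.4 ± 4.8 (SD, n = 4), a log2 difference of -0.46 ± 0.06 (SE), a change of -27.1%. On the log2 scale the gap between the lowest control and the highest IL-6 array was 0.33 for miR-129-1-3p and 0.26 for miR-129-2-3p.

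**Figure D1:**
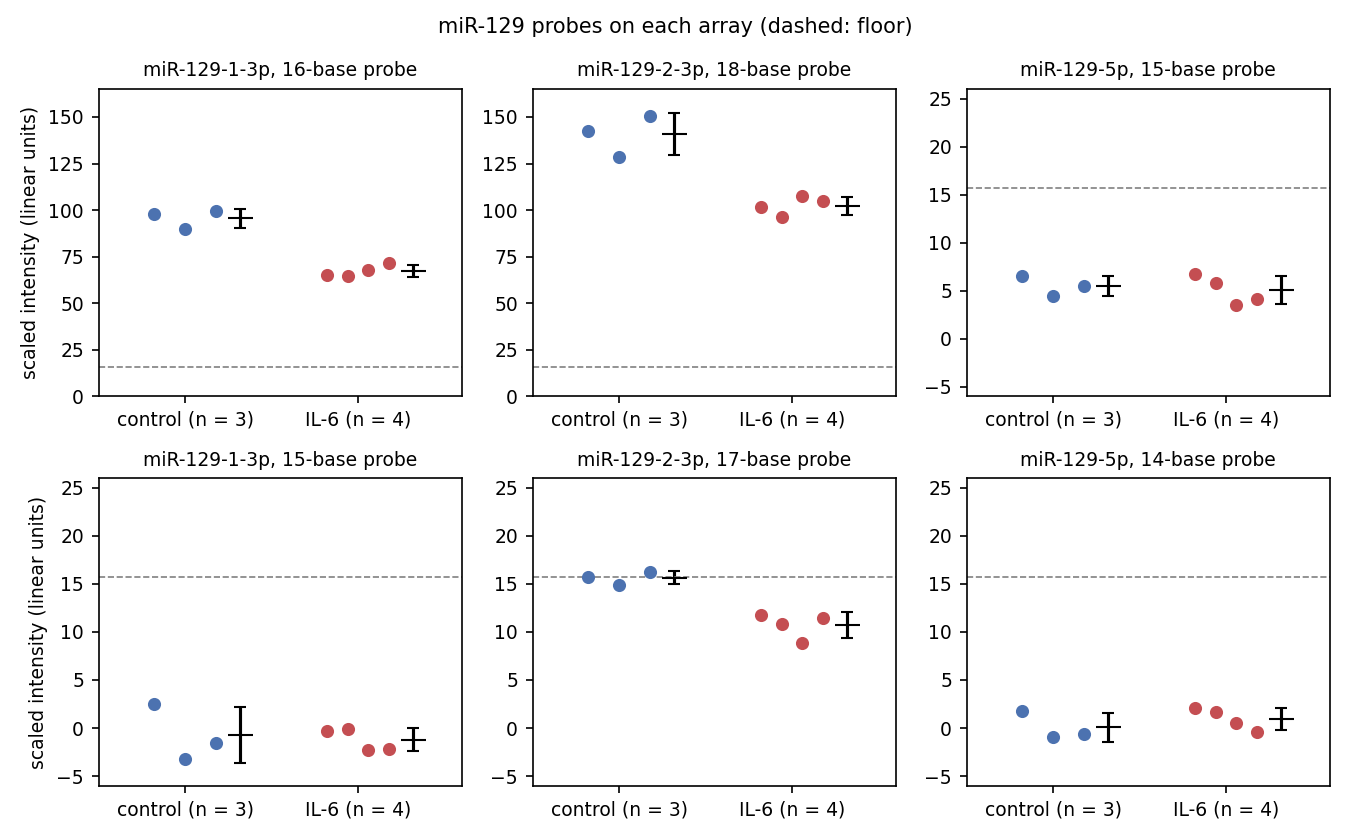
Scaled intensity (linear units) of the 6 miR-129 probes on each array, 1 point per array; the bars at the right of each group are the mean ± SD over arrays, and the dashed line is the floor of 15.7 units. The upper left and upper middle panels have a wider axis, and in both the 4 IL-6 arrays lie below the 3 controls; the other 4 probes read 16.3 units or less on every array.

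The shorter probe of each 3p miRNA was at or near background. For miR-129-1-3p, the 15-base probe lacks 1 letter of the 16-base probe and was well above background on none of 69 usable spots, where the 16-base probe was so on all 69. Its scaled values ran from -3.18 to 2.55 units and gave no order of the groups. For miR-129-2-3p, the 17-base probe was well above background on 12 of 67 usable spots, 9 of them on control arrays, against 68 of 68 for the 18-base probe. It read 15.7, 14.9 and 16.3 scaled units on the controls and 11.8, 10.8, 8.84 and 11.4 on the IL-6 arrays. These groups do not overlap either, but most of the values lie under the floor of 15.7 units, the lowest level taken as measured, so no fold is given.

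miR-129-5p, the arm that both hairpins share, was not well above background on any array. Of its 132 usable spots, 0 were well above background. The 15-base probe read 6.57, 4.46 and 5.46 scaled units on the controls and 6.70, 5.77, 3.53 and 4.18 on the IL-6 arrays, with group means of 5.49 ± 1.06 (SD, n = 3) and 5.04 ± 1.45 (SD, n = 4). The 14-base probe had means of 0.0919 ± 1.5 (SD, n = 3) and 0.954 ± 1.1 (SD, n = 4). The groups overlap in both probes and all values lie under the floor, so no difference in the 5p arm was detectable and none is given as a fold. The comparison of the 3p arms with the 5p arm, probe by probe, therefore sets measured levels against a signal at background. Since the arms are read by different probes, this does not give the ratio of the arms in the cells.

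The 3p-to-5p pattern of miR-129 was not rare on this array. RefSeq pairs both arms of 267 hairpins with names on the array. In 47 of them (17.6%), the Mir129 pair included, the 3p arm was detected on all 7 arrays and the 5p arm on none; in 52 (19.5%) it was the other way round. Both arms were detected on all arrays in 18 hairpins and neither arm on any array in 115. The 42 distinct 3p arms tested from hairpins with an undetected 5p arm, miR-129 included, had a median log2 difference of -0.04 between IL-6 and control, against 0.02 over all 181 tested miRNAs. Where both arms were detected on all arrays, the 3p and 5p log2 differences lay a median of 0.11 and at most 0.28 apart. Some of these arms lay at the floor on some arrays, which limits their differences.

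The log2 ratio of the 16-base over the 18-base probe was -0.54, -0.52 and -0.60 on the controls and -0.64, -0.57, -0.66 and -0.55 on the IL-6 arrays. The groups overlap in this ratio. It changed by -0.05 with IL-6, about as much as its SD within the groups, 0.04 over the controls and 0.05 over the IL-6 arrays. The log2 levels themselves had an SD within groups of 0.07 for miR-129-1-3p and 0.09 for miR-129-2-3p. In both miRNAs control replicate 3 was the highest array, control replicate 2 the lowest control and IL-6 replicate 2 the lowest of all. How much of the 16-base signal came from each RNA was not tested.

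The size of the difference varied between slide columns; its sign was fixed, since every IL-6 array lay below every control. For miR-129-1-3p the log2 difference was -0.58 in column 1, -0.40 in column 3 and -0.48 in column 4, with 1 control and 1 IL-6 array each. For miR-129-2-3p it was -0.49, -0.26 and -0.53. IL-6 replicate 2 was alone in its column and enters none of these values.

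**Figure D2:**
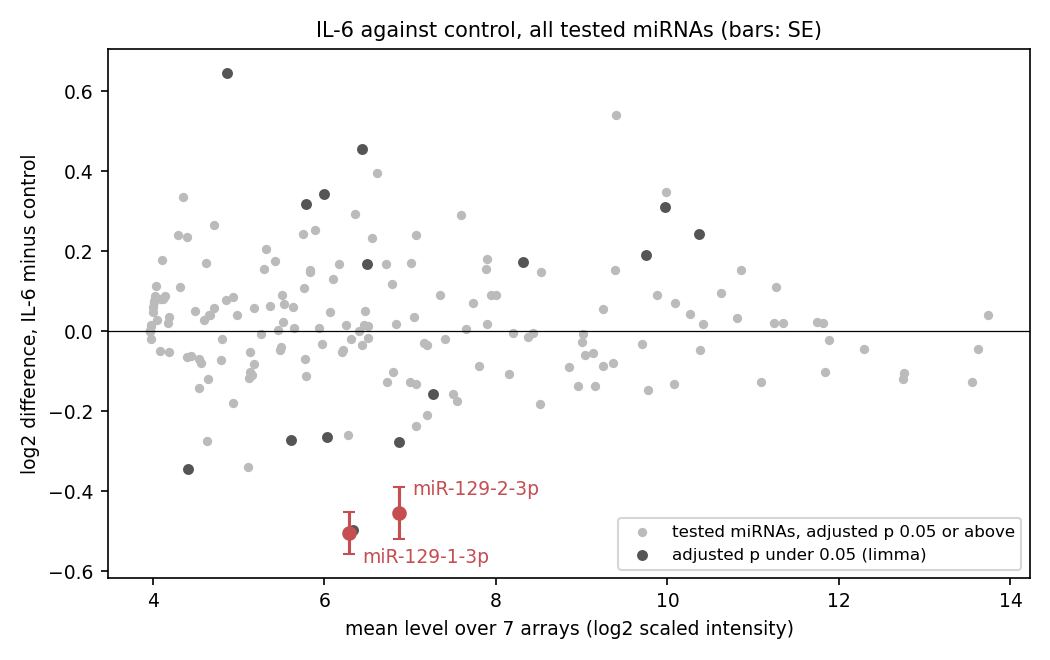
Log2 difference between IL-6 and control arrays against the mean log2 level, 1 point for each of the 181 tested miRNAs; darker points have an adjusted p under 0.05 (limma), and bars on the miR-129 3p miRNAs are the SE. miR-129-1-3p at -0.50 is the lowest point and miR-129-2-3p at -0.46 the third lowest.

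Over all tested miRNAs, 9 were higher (4.97%) and 8 lower (4.42%) with IL-6 (limma, Benjamini-Hochberg adjusted p under 0.05). Both tested miR-129 miRNAs, 2 of the 3 on the array, are among the lower ones, which their selection on this difference favours. The background for separation is larger: in 10.5% of the tested miRNAs every IL-6 array was below every control array, and in 11.6% every one was above. The number of calls depended on single arrays. Leaving out control replicate 1 or IL-6 replicate 3 left 0 calls in either direction (limma), with 31 and 39 miRNAs at an unadjusted p under 0.05, against 49 with all arrays. Leaving out control replicate 2 left 0 higher and 2 lower. With slide column as a block there were 0 calls and 52 miRNAs at an unadjusted p under 0.05. Without IL-6 replicate 4, 2 were higher and 6 lower.

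Some scalings between arrays moved the size of the miR-129 difference further than leaving out any 1 array did. With 1 array left out at a time, it stayed between -0.55 and -0.45 for miR-129-1-3p and between -0.52 and -0.40 for miR-129-2-3p. With spike-in scaling the values were -0.32 ± 0.10 and -0.27 ± 0.10 (SE), and there the median of all tested miRNAs was 0.18. Under normexp background with an offset of 50 units they were -0.23 ± 0.12 and -0.24 ± 0.11 (SE). The groups of both miRNAs overlapped there and when all probes set the 75th percentile, and those of miR-129-2-3p also in the deposited value table. The difference was negative for both miRNAs in 17 of 17 other settings, which describes the difference they were selected on and adds no independent support.

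**Figure D3:**
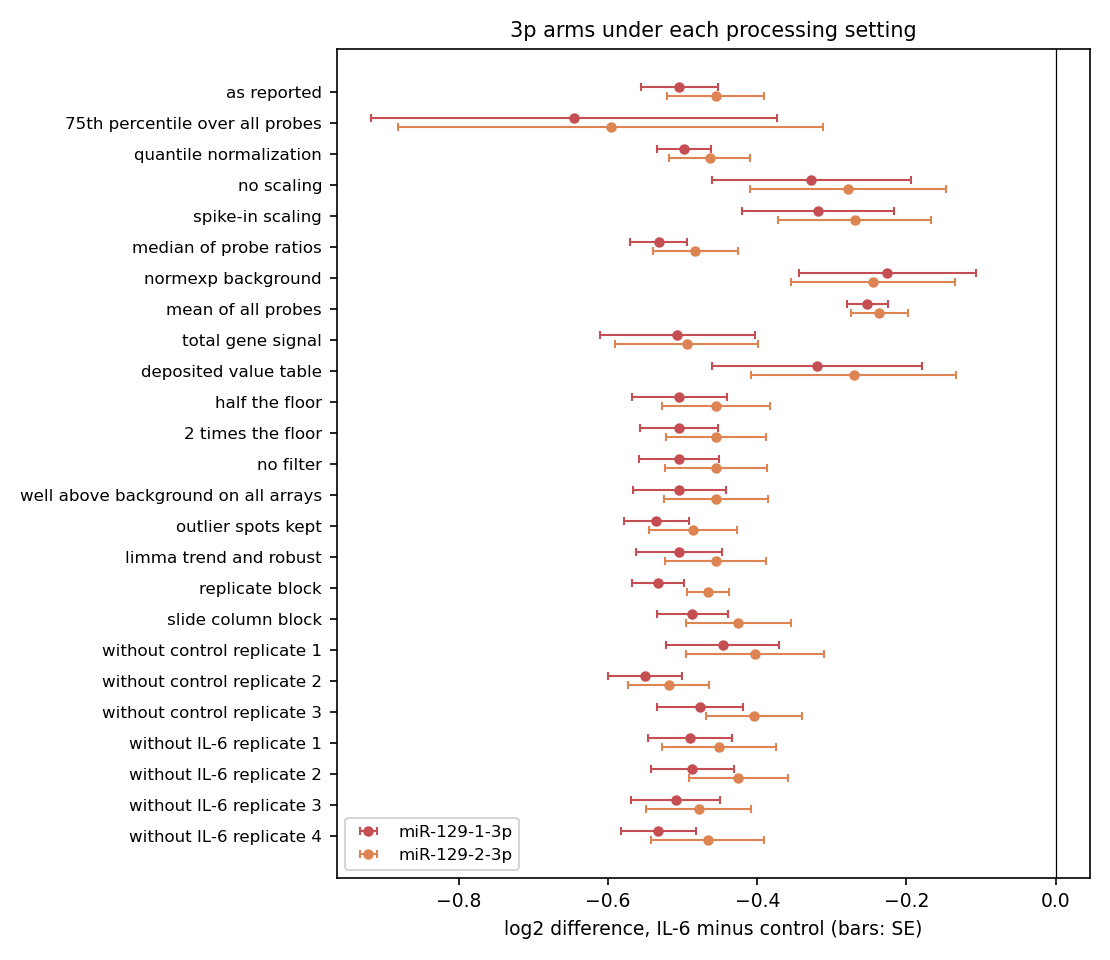
Log2 difference between IL-6 and control for miR-129-1-3p and miR-129-2-3p under each processing setting and with each array left out; points are the fitted values and bars the SE. All points lie below 0, from -0.65 to -0.23 for miR-129-1-3p and from -0.60 to -0.24 for miR-129-2-3p.

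The miRNAs whose levels followed miR-129-1-3p most closely were sought among the 155 other tested miRNAs that were above the floor on every array. The measure was the mean absolute difference of the log2 levels over the 7 arrays after each miRNA's own mean was taken off; it contains the group difference, so it favours miRNAs lower with IL-6. miR-129-2-3p was at 0.04 and the median of the 155 at 0.26. Because the 16-base probe also pairs with miR-129-2-3p over its full length, these 2 levels need not be separate readings. The closest other miRNA was miR-210-3p, which hypoxia induces, at 0.08, with a log2 difference of -0.34 ± 0.05 between the groups. Its mean log2 levels, 4.61 on the controls and 4.26 on the IL-6 arrays, were not far above the floor of 3.97. miR-6216 followed at 0.10 (-0.50 ± 0.11) and miR-34c-5p, which p53 induces, at 0.11 (-0.28 ± 0.04). miR-132-3p, which CREB induces in neurons, was at 0.11 (-0.27 ± 0.06). Having been chosen for that likeness, their differences are descriptions too. The fifth, miR-1839-3p, was at 0.12 (-0.27 ± 0.10), and its IL-6 replicate 4 lay above control replicate 2. Its mean log2 levels, 4.78 on the controls and 4.51 on the IL-6 arrays, were also low.

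**Figure D4:**
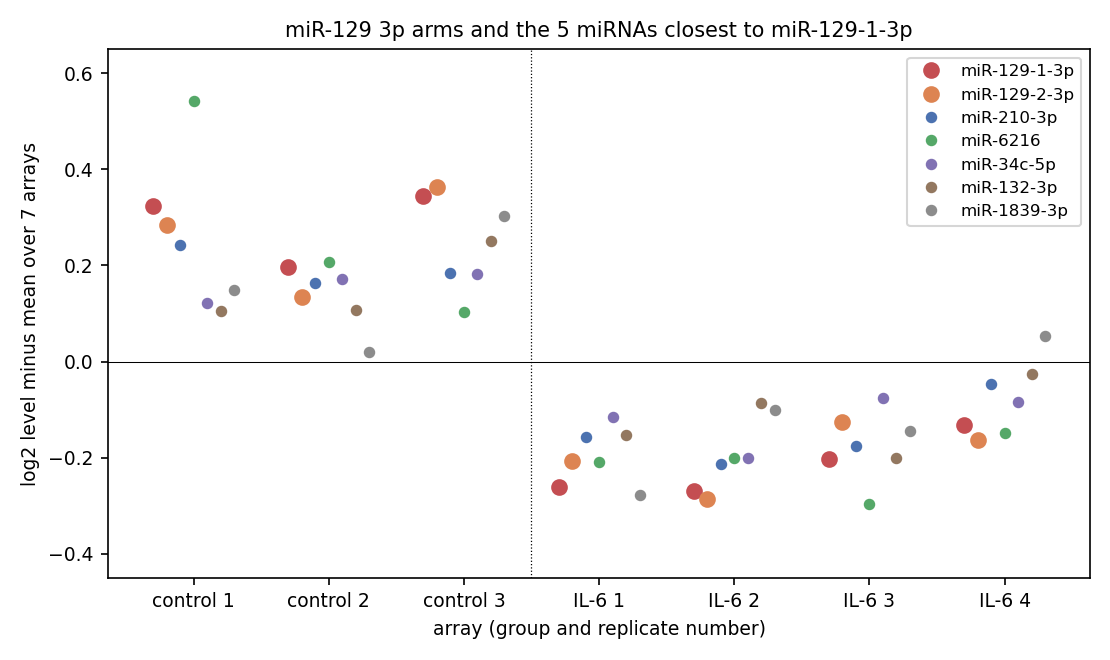
Log2 level minus the miRNA's mean over the 7 arrays (y axis) on each array (x axis, replicates have no order) for the miR-129 3p miRNAs and the 5 miRNAs closest to miR-129-1-3p. Every point of both miR-129 3p miRNAs lies above 0 on the controls and below 0 on the IL-6 arrays, and the 5 others spread less widely, except miR-6216, at 0.54 on control replicate 1.

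Since miR-129 is known as a neuronal miRNA, a list of 16 other miRNAs compiled as neuron-enriched was looked up. Not all of the 16 are particular to neurons, so their detection does not show neurons in the cultures. Every array detected 8 of the 16, and no array detected the other 8, which include miR-124-3p, miR-9a-5p and miR-137-3p. Their median log2 difference was -0.0021 over the 8 tested, against 0.02 over all tested miRNAs. The difference was negative in 4 of the 8, and in 77 of all 181 tested. Of the 8, 1 fell, miR-132-3p, and none rose (limma, Benjamini-Hochberg adjusted p under 0.05). Over all 181 tested miRNAs, 4.42% were lower and 4.97% higher by the same criterion. The neighbour of miR-132-3p in the genome, miR-212-3p, had -0.18 ± 0.05 and did not pass (limma, adjusted p = 0.0839). miR-125b-5p (-0.04 ± 0.03), which many tissues express, miR-218a-5p (0.25 ± 0.12), known from motor neurons, and miR-128-3p (-0.04 ± 0.06) did not pass either. The summed level of the list ran from 13219 to 13940 scaled units on the controls and from 12809 to 13694 on the IL-6 arrays. miR-125b-5p alone made up 94.3% to 94.6% of that sum. The other 7 detected members summed to 621.5 to 646.9 units on the controls and 569.9 to 622.3 on the IL-6 arrays, ranges that barely overlap. Among these 7, miR-212-3p had the highest mean log2 level, 8.51, against 5.90 for the next, miR-218a-5p. This sum therefore mostly follows miR-212-3p and does not describe the list as a set.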

How the data were processed

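Per the file headers, the deposited spot intensities are linear and were written by Agilent Feature Extraction 10.10.1.1. The processed signal used here is background-subtracted and not scaled between arrays. The value table deposited with them matches the software's total probe signal on each of 15095 spots (tolerance 0.001). Probe positions are on rn4, per the file headers. Controls were removed, as were spots the software had marked as outliers (2.88% to 3.84% of an array); there were no saturated spots. The remaining spots were averaged per probe. Each array was divided by its 75th percentile, taken over 268 probes that were well above background throughout. A floor of 15.7 units was set before log2 was taken. The background criterion for a probe was a share of at least 0.5 of its spots well above background. For each miRNA the brightest probe was used. Testing required detection on all arrays of either group, which 181 miRNAs met. Of the 181, 5 lay at the floor on all arrays and could show no difference, but they count in every share of tested miRNAs.

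limma 3.58.1 in R 4.3.3 compared the groups (Benjamini-Hochberg, threshold 0.05), a fit that was tested on simulated data. The simulated sets held all 719 miRNAs on the array with independent noise, so their setting differs from that of the 181 miRNAs tested here. Precision is limited by the number of arrays, with a median SE of 0.07. Alternatives were other scalings, backgrounds, signals, probe rules, floors, filters, models and blocks, and leaving out each array. Named miRNAs are the members, the 5 closest to miR-129-1-3p, and of the neuronal list those that passed and the 4 others of highest level. Hairpins with a gap between arms as large as in miR-129 were to be named, but that gap could not be given. The members and lists were chosen with earlier results of these data known.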

Additional observations from a re-analysis of the deposited data

Results flagged for a closer look

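Dixon's outlier ratio was computed over the 4 IL-6 arrays for 9 quantities that bear on miR-129, and 1 passed its critical value, a limit that about 1 in 20 groups passes by chance. The mean log2 signal of the spike-in RNAs was 11.67 on IL-6 replicate 1 and 11.81 on the other 3 IL-6 arrays (ratio 0.977). Without that array the log2 difference was -0.49 for miR-129-1-3p and -0.45 for miR-129-2-3p. The levels of both 3p miRNAs and their ratio did not pass that value.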

How the results depend on the processing

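Both 3p differences moved by less than the SD between replicates in 11 of 17 alternatives and with each array left out (-0.55 to -0.45 for miR-129-1-3p, -0.52 to -0.40 for miR-129-2-3p). They moved by more, given in that order, when all probes set the 75th percentile (-0.65 and -0.60), no scaling (-0.33 and -0.28), spike-in scaling (-0.32 and -0.27), normexp background (-0.23 and -0.24), the mean of all probes (-0.25 and -0.24) and the deposited value table (-0.32 and -0.27). Averaging probes shrinks a difference by construction where the shorter probe is at the floor. Under the scalings the median of all tested miRNAs also moved, to -0.12, 0.17 and 0.18, and to 0.20 in the value table. The counts of 9 higher and 8 lower miRNAs (limma) became 0 and 0 when all probes set the percentile, with no scaling, normexp, the value table, no filter (719 miRNAs tested) and slide column as a block, with 1, 29, 7, 28, 41 and 52 miRNAs at an unadjusted p under 0.05. They were 4 and 0 with spike-in scaling, 3 and 2 with total gene signal, 11 and 14 with the median of probe ratios, 6 and 5 with 2 times the floor, and 9 and 14 with outlier spots kept. With arrays left out they ranged from 0 to 9 and from 0 to 7. The cause of the other shifts was not tested. With the replicate block, 0 were higher and 3 lower, and the 3p differences were -0.53 and -0.47. Deviations of same-numbered arrays correlated at 0.52, -0.18 and 0.26 across miRNAs. Control replicates 2 and 3 and IL-6 replicate 2 correlated best with another number. Control replicate 1 and IL-6 replicates 1 and 3 correlated best with their own, and IL-6 replicate 4 has no control of its number. The matches are mixed, so the numbers are not taken to pair the samples. The arrays that correlated at 0.52, replicate 1 of each group, also shared slide column 1, so number and column cannot be told apart there. miR-129-5p was at the floor under the reported processing and is given no difference in any setting.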

Other observations

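Feature Extraction's own summary per miRNA, the total gene signal, called miR-129-5p not detected on all 7 arrays and lists it at 0.1 units on each. It gave miR-129-2-3p 91.0, 91.5 and 114 units on the controls and 67.4, 91.5, 76.5 and 83.9 on IL-6 replicates 1 to 4, without scaling between arrays, so the groups overlap in that summary. For miR-129-1-3p it gave 56.2, 57.2 and 67.6 units on the controls and 38.8, 55.5, 48.4 and 51.6 on the IL-6 arrays, which do not overlap.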
